A study of Mus musculus with 6 samples.

Results

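The integrated stress response genes were examined in mouse liver RNA as a list of 10 symbols: Atf4, Atf3, Ddit3, Trib3, Asns, Chac1, Sesn2, Atf5, Ppp1r15a and Ddit4. All 10 had a row among the 16638 genes of the deposited table, and all 10 passed the filter on low values (an average of 0.5 FPKM or more across libraries), which left 10745 genes for the test. FPKM counts fragments per length of the gene, scaled to the size of the library. The animals were a mouse model of obesity. In 1 group HA, named as hippuric acid, was injected intraperitoneally 2 times a week for 5 weeks, each dose being 60 mg/kg, and the controls are labelled PBS (phosphate-buffered saline), with 3 libraries in each group. The labels state no strain, diet, age or sex and no schedule for PBS. They also do not say that the livers of a group came from separate animals, so p-values measure only the spread between these samples.

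The integrated stress response is a pathway by which cells slow protein synthesis under stress. Kinases that sense amino acid shortage, unfolded proteins in the endoplasmic reticulum, haem shortage or double-stranded RNA phosphorylate the translation factor eIF2, general translation falls, and the mRNA of the transcription factor ATF4 is translated more. ATF4 then raises genes of amino acid supply, of feedback and, when stress lasts, of cell death, so the targets report on the pathway more directly than the Atf4 transcript does. In liver the pathway is known for its response to amino acid restriction and to fatty liver.

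ATF4 binds, mostly in pairs with C/EBP proteins, to an element of the form TGATGNAA, and the promoters of the members were searched for it to show which of the genes described here carry it close to their start. Promoters of all 10 members were found by symbol in RefSeq's promoter sequences (build GRCm38.p6, 250 bases before to 50 bases after each start, 11 promoters in all). On either strand the element lay in promoters of 4 of the 10 members, Atf3, Chac1, Asns and Trib3. Counted in the same way by symbol, 1219 of 27025 symbols had it. It lay in 3.97% of the 32851 promoters of the table. A search for TGATGCAAT, a stricter form that lies within the first, matched no member and 0.19% of all promoters. The cAMP response element TGACGTCA was found in the promoter of Ppp1r15a and in 1.79% of all promoters. The Trib3 match began 14 bases after the start, and the other 3 lay upstream, 193 bases before the start in Chac1, 110 in Atf3 and 23 in Asns, counted from the first base of the match. Their surroundings are written 5′ to 3′ on the strand of the gene, with the element in capitals. The Chac1 stretch is chr2:119351009-119351096 (plus strand), the Atf3 stretch chr1:191183396-191183483 (minus strand) and the Asns stretch chr6:7693210-7693272 (minus strand), all in GRCm38.p6.
Chac1: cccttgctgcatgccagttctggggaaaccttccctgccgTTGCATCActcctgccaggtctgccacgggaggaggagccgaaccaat
Atf3: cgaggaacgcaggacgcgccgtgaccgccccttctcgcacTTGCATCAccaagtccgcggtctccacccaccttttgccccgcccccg
Asns: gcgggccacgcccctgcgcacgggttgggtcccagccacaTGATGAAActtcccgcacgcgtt
In Chac1 and Atf3 the element was on the opposite strand, so the capitals show its reverse complement. A match describes these letters only and is not evidence of binding, and the other 6 members had no match to the ATF4 element in this window.

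The library totals worked out from the FPKM values were 37921444 to 39908844 fragments. Hepatocyte markers were present in every library, with Alb at 60870 to 71080 FPKM in HA livers and 36520 to 47670 FPKM in PBS livers. Cyp2e1 lay the other way, at 2930 to 5632 FPKM in HA livers and 8131 to 8151 FPKM in PBS livers. Of the 8 hepatocyte markers 5 had positive and 3 negative log2 fold changes, and 0 were called. PBS replicate 1 held transcripts of other tissues: the 8 adrenal markers summed to 62.6 FPKM there against 0.150 to 0.391 FPKM in the other 5 libraries, and the 8 skeletal muscle markers to 57.3 against 0.271 to 1.43 FPKM. The adrenal markers Cyp11a1, Cyp11b1 and Hsd3b1 were at 0 in those 5 libraries. Red blood cell markers summed to 700 to 1320 FPKM in HA livers and 227 to 335 FPKM in PBS livers. Of 5 tested 3 were called higher, against 0.289% of all tested genes. Alas2 lay the other way and was not called, at 34.24 to 36.57 FPKM in HA livers and 36.82 to 45.85 FPKM in PBS livers. The 10 Kupffer cell and macrophage markers summed to 140 to 256 FPKM in HA livers and 124 to 147 FPKM in PBS livers, with 0 called; in bulk tissue more cells of a type and more RNA per cell cannot be told apart. The part of these cells in the values of the members was not tested.

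Across HA and PBS livers, 0 of the 10 integrated stress response genes rose and 0 fell past the threshold (limma, adjusted p under 0.05 over all genes tested), while 0.289% of all tested genes were called higher (31 genes) and 0.512% lower (55 genes) with HA. This split of all genes turned with the scaling, with 36 higher and 32 lower after median centring, 33 and 24 when Alb was kept out of the library totals, and 28 and 19 in voom when depth was set by median ratios. None of these scalings called a member. Adjusted p ran from 0.153 (Atf3) to 0.946 (Chac1). At an unadjusted p under 0.05 there was 1 member, Atf3, and 17.7% of all tested genes. Log2 fold changes on the log2(FPKM + 1) scale were positive for 5 members and negative for 5, with a median of -0.03 against -0.06 over all genes tested. In 9 members the values of HA and PBS livers overlapped; in Atf3 all 3 HA values lay below all 3 PBS values, as was the case for 19.2% of all tested genes, and 0 members had all HA values above, against 6.47% of all tested genes. Leaving out 1 library at a time moved the number of all genes called, to 17 higher and 17 lower without HA replicate 1, 46 and 69 without HA replicate 2 and 6 and 19 without HA replicate 3. Without PBS replicates 1, 2 and 3 in turn it was 3, 1 and 5 higher and 4, 7 and 6 lower. In each of these fits 0 members were called, and voom on the recovered fragments also called 0.

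**Figure D1:**
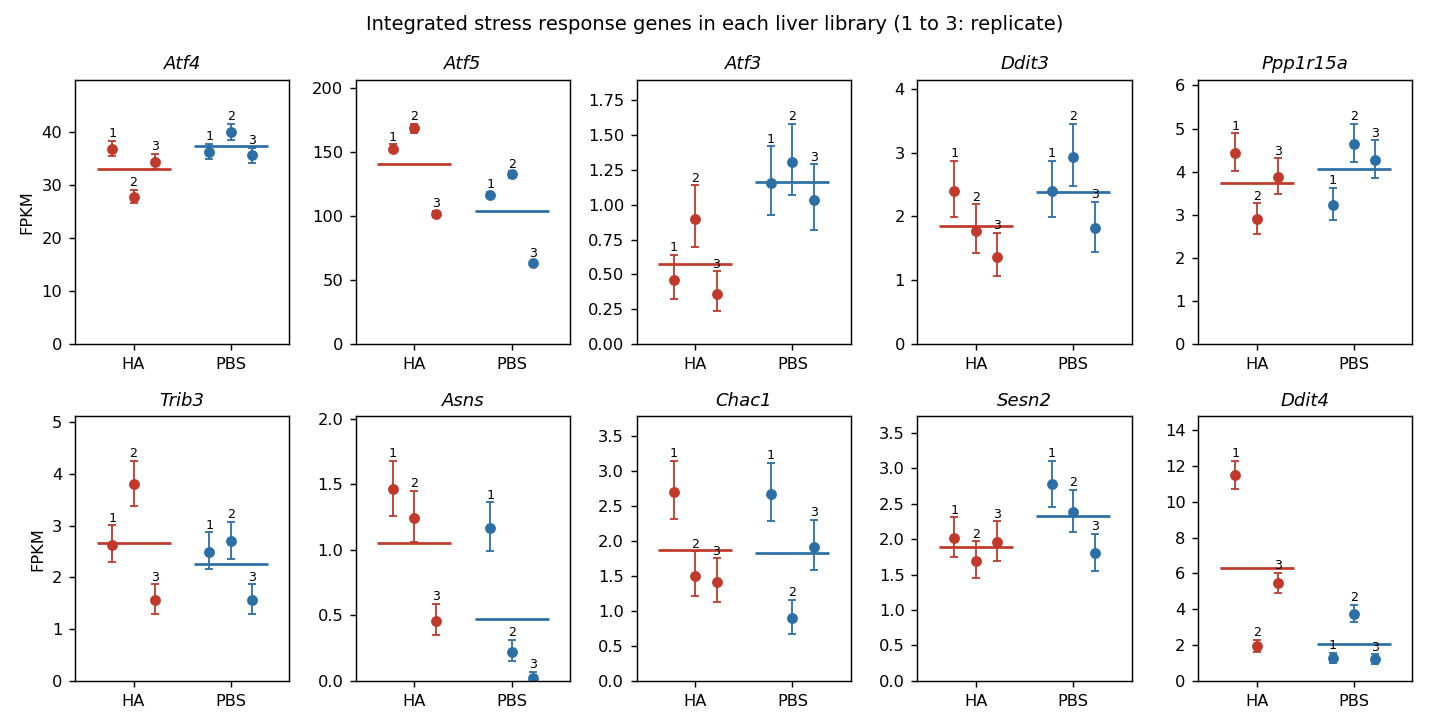
FPKM of the 10 integrated stress response genes in each library (vertical axis, from 0, its own scale per gene), for HA on the left and PBS on the right; numbers are replicates, error bars are exact 95% Poisson intervals on the recovered fragments and cover counting error only, and horizontal lines are group means. The groups are apart in Atf3 and overlap in the other 9 genes.

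**Figure D2:**
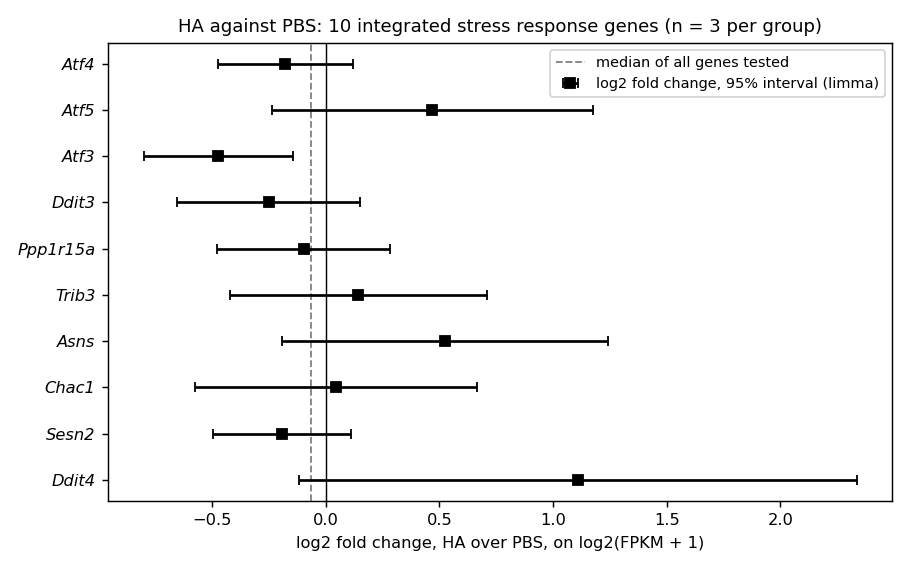
Log2 fold change of HA over PBS for each gene on log2(FPKM + 1), with its 95% interval from limma (n = 3 per group); the dashed line is the median of all genes tested, at -0.06. The interval of Atf3 lies below 0 before adjustment over genes, and the other 9 intervals include 0.

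The levels of the members spanned a wide range, and since FPKM is per length they can be set against each other. Atf5 averaged 123 FPKM over the 6 libraries and Atf4 35.2 FPKM, and Atf5 alone held 69.6% of the summed FPKM of the list. Atf5 was above Atf4, and Atf4 above every other member, in 6 of 6 libraries. Ddit4 (4.18 FPKM) and Ppp1r15a (3.89 FPKM) came next and were not apart, since Ddit4 was the higher of the pair in 2 of 6 libraries. Trib3, Ddit3, Sesn2 and Chac1 averaged 2.46, 2.11, 2.10 and 1.85 FPKM, with neighbours in that order exchanging places between libraries. Atf3 (0.869 FPKM) and Asns (0.762 FPKM) were lowest, and Atf3 was the higher of these in 2 of 6 libraries.

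Among the transcription factors, Atf4 itself was at 36.9, 27.9 and 34.4 FPKM in HA replicates 1 to 3 and at 36.3, 40.1 and 35.6 FPKM in PBS replicates 1 to 3. Only HA replicate 1 lay within the PBS values, and HA replicate 2 was the lowest of all. Atf4 averaged 33.1 ± 4.69 FPKM in HA livers and 37.3 ± 2.39 FPKM in PBS livers (SD, n = 3 each), so the difference was -0.18 on the log2 scale (95% interval -0.48 to 0.12, or 0.719-fold to 1.09-fold; SE 0.13, adjusted p = 0.494 in limma). Without HA replicate 2 the difference was -0.06. The translation of the mRNA, by which the pathway mainly acts, was not measured.

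Atf5, a relative of ATF4 that is also controlled by translation and is abundant in hepatocytes, was at 153, 168 and 102 FPKM in HA livers and at 116, 133 and 63.4 FPKM in PBS livers. Replicate 3 was the lowest of each group, and HA replicate 3 was below PBS replicates 1 and 2. The means were 141 ± 34.8 FPKM with HA and 104 ± 36.3 FPKM with PBS, and the log2 fold change was 0.47 (SE 0.30, limma adjusted p = 0.450, 95% interval -0.24 to 1.17). Without PBS replicate 3 it was 0.15. Exons of Atf5 overlap those of Nup62 and Il4i1 on the other strand by 82 bases in GENCODE M21; Nup62 was at 1.70 to 2.39 FPKM in HA livers and 2.46 to 2.97 FPKM in PBS livers.

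Atf3, a stress-induced repressor of the same bZIP family that ATF4 raises, was at 0.463, 0.900 and 0.360 FPKM in HA livers, from 36, 68 and 27 fragments, and at 1.15, 1.31 and 1.03 FPKM in PBS livers, from 89, 103 and 78 fragments. The groups did not overlap, but the counting interval of HA replicate 2 (0.699 to 1.14 FPKM) reached into that of PBS replicate 3 (0.816 to 1.29 FPKM). It averaged 0.574 ± 0.287 FPKM with HA and 1.16 ± 0.137 FPKM with PBS, which is 0.494-fold on the FPKM scale. On the log2(FPKM + 1) scale, which understates changes of low genes, the difference was -0.47 (SE 0.14, 95% interval -0.80 to -0.14), which missed the threshold (limma adjusted p = 0.153, unadjusted p = 0.0110). With voom on the recovered fragments the log2 fold change was -1.12 (adjusted p = 0.169).

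Ddit3 encodes CHOP, a pro-apoptotic transcription factor downstream of ATF4. Its level was 2.40, 1.77 and 1.37 FPKM in HA livers and 2.40, 2.94 and 1.81 FPKM in PBS livers. HA replicates 2 and 3 were below all PBS libraries and HA replicate 1 was level with PBS replicate 1. The log2 fold change was -0.25 (SE 0.17, limma adjusted p = 0.483, 95% interval -0.66 to 0.15). Leaving out HA replicate 1 gave -0.39, HA replicate 3 -0.13, PBS replicate 2 -0.14 and PBS replicate 3 -0.38. Exons of Ddit3 overlap by 68 bases those of the methionyl-tRNA synthetase gene on the other strand in GENCODE M21. This synthetase gene, Mars1, was at 7.802 to 9.973 FPKM in HA livers and 7.654 to 9.485 FPKM in PBS livers, above Ddit3. The labels do not say whether reads were counted by strand.

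Of the feedback genes, Ppp1r15a encodes GADD34, which brings a phosphatase to eIF2 and restores translation. It was at 4.43, 2.89 and 3.88 FPKM in HA livers and at 3.24, 4.65 and 4.27 FPKM in PBS livers. The groups were interleaved, and the log2 difference was -0.10 (SE 0.16, 95% interval -0.48 to 0.28, limma adjusted p = 0.785), but 0.037 without HA replicate 2. Trib3, a pseudokinase that restrains ATF4, CHOP and AKT, was at 2.63, 3.80 and 1.57 FPKM in HA livers and at 2.50, 2.70 and 1.57 FPKM in PBS livers. HA replicate 2 was the highest library, and replicate 3 was the lowest of each group, at nearly the same value. Its log2 fold change was 0.14 (SE 0.24, limma adjusted p = 0.788, 95% interval -0.42 to 0.71), and it was -0.075 without HA replicate 2 and -0.02 without PBS replicate 3.

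Of the effectors of amino acid and glutathione metabolism, Asns, which makes asparagine, was at 1.46, 1.24 and 0.457 FPKM in HA livers, from 196, 162 and 59 fragments, and at 1.17, 0.221 and 0.0230 FPKM in PBS livers, from 155, 30 and 3 fragments. PBS replicate 1, the library with adrenal and muscle transcripts, lay among the HA values, and the other PBS libraries lay below all of them. The counting interval of PBS replicate 3 was 0.00475 to 0.0673 FPKM and that of PBS replicate 1 was 0.989 to 1.36 FPKM, so the intervals of these controls did not overlap. The means were 1.05 ± 0.529 FPKM with HA and 0.470 ± 0.610 FPKM with PBS, and the log2 fold change of 0.52 (SE 0.31, 95% interval -0.19 to 1.24) did not pass (limma adjusted p = 0.408). It was 1.52 with a pseudocount of 0.1 (adjusted p = 0.376) and 2.29 with voom on the recovered fragments (adjusted p = 0.311), where Ddit4 had 1.42 and 1.47. On the log2(FPKM + 1) scale it was 0.84 without PBS replicate 1 (adjusted p = 0.271) and 0.30 without PBS replicate 3 (adjusted p = 0.671).

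Chac1, an enzyme that breaks down glutathione, was at 2.70, 1.50 and 1.41 FPKM in HA livers and at 2.68, 0.894 and 1.92 FPKM in PBS livers. Replicate 1 was the highest of each group and the means were alike, 1.87 ± 0.722 FPKM with HA and 1.83 ± 0.895 FPKM with PBS. The log2 fold change was 0.05 (SE 0.27, limma adjusted p = 0.946), and its 95% interval of -0.58 to 0.67, or 0.671-fold to 1.59-fold, still spans moderate changes either way. It was -0.15 without HA replicate 1 and -0.22 without PBS replicate 2.

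The last pair act on mTORC1, the kinase complex that drives growth. Sesn2, a leucine sensor that restrains it, was at 2.02, 1.69 and 1.95 FPKM in HA livers and at 2.78, 2.39 and 1.80 FPKM in PBS livers. PBS replicate 3 lay within the HA values, and the other PBS libraries lay above them (log2 fold change -0.19, SE 0.13, limma adjusted p = 0.472, 95% interval -0.50 to 0.11). It was -0.09 without PBS replicate 1 and -0.31 without PBS replicate 3. Ddit4, which encodes REDD1, an inhibitor of mTORC1 that glucocorticoids and hypoxia also raise, had the largest log2 fold change of the members on the log2(FPKM + 1) scale, while with a pseudocount of 0.1 and with voom that of Asns was larger. It was at 11.5, 1.94 and 5.45 FPKM in HA livers and at 1.26, 3.75 and 1.20 FPKM in PBS livers. HA replicates 1 and 3 were above every PBS library, and HA replicate 2 was below PBS replicate 2. The means were 6.29 ± 4.82 FPKM with HA and 2.07 ± 1.45 FPKM with PBS, with a log2 fold change of 1.11 (SE 0.52, 95% interval -0.12 to 2.34, limma adjusted p = 0.318). Without HA replicate 1 it was 0.60 (adjusted p = 0.516); leaving out HA replicate 2 gave 1.65 (adjusted p = 0.111).

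**Figure D3:**
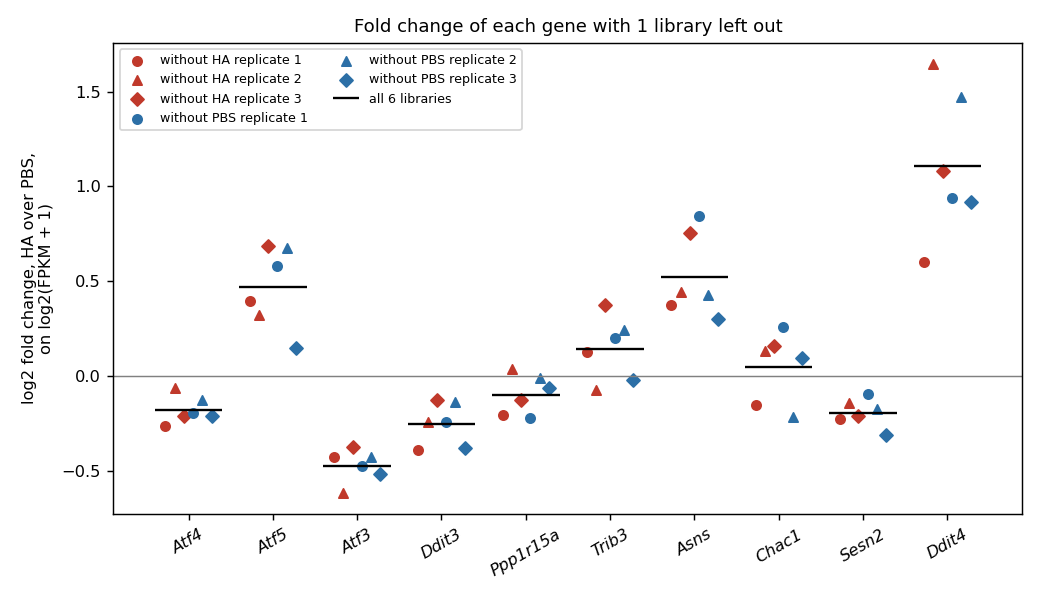
Log2 fold change of HA over PBS on log2(FPKM + 1) for each gene with 1 library left out (symbols, red for an HA library left out and blue for a PBS library) and with all 6 libraries (black lines). The values of Ddit4 run from 0.60 to 1.65, those of Atf3 stay below 0, and those of Chac1, Trib3 and Ppp1r15a lie on both sides of 0.

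The spread within groups was large for some of these genes and near the median of all tested genes for Atf4 and Sesn2. The residual standard deviation of all 10 members was above the median of all tested genes, from percentile 53.6 for Atf4 to percentile 99.2 for Ddit4. Asns, Atf5, Chac1 and Trib3 were at percentiles 96.5, 96.2, 94.7 and 93.0, and Sesn2 was at 56.9. The libraries also differed as a whole. Among HA livers, replicate 1 was the highest library for 7 of the 10 members and for 31.9% of all tested genes, and the lowest for 0 members against 38.8% of all tested genes. Among PBS livers, replicate 3 was the lowest library for 8 of the 10 members, against 48.5% of all tested genes, and the highest for 0. These counts describe the libraries and carry no test.

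Ddit4 was read beside genes of the hormones that raise it. Of 9 glucocorticoid targets tested, 8 had positive log2 fold changes and 1, Zbtb16, a negative one (-0.50), with a median of 0.31. Only 2 of the 9, Mt2 and Mt1, had an unadjusted limma p under 0.05, against 17.7% of all tested genes. Over all tested genes 62.8% were negative. Mt2, a metallothionein, was called higher with HA and 8 did not pass. It was at 209 to 377 FPKM in HA livers and 52.4 to 98.8 FPKM in PBS livers (limma adjusted p = 0.0424). Mt2 was called under 8 of 16 alternatives in processing (adjusted p 0.0359 to 0.137). Mt1, another metallothionein, was at 147 to 298 FPKM in HA livers and 66.1 to 93.5 FPKM in PBS livers (limma adjusted p = 0.0557). Sgk1, a kinase raised by glucocorticoids, was at 11.9, 4.38 and 5.33 FPKM in HA livers and at 3.08, 5.12 and 3.88 FPKM in PBS livers, with overlapping groups (limma adjusted p = 0.363). Per1, a clock gene that glucocorticoids induce, was at 3.55, 3.19 and 4.35 FPKM in HA livers and 2.19, 3.94 and 2.21 FPKM in PBS livers (adjusted p = 0.397). Ddit4 was highest in HA replicate 1 among HA livers and in PBS replicate 2 among PBS livers. Of the glucocorticoid targets, Sgk1, Tat and Tsc22d3 were highest in these same libraries, and the others were not highest in both. Tat was at 607, 335 and 460 FPKM in HA livers and 283, 519 and 331 FPKM in PBS livers. Tsc22d3 was at 39.0, 13.5 and 38.5 FPKM in HA livers and 17.5, 46.2 and 16.5 FPKM in PBS livers. Fkbp5, a chaperone of the glucocorticoid receptor, was lowest in HA replicate 1 and PBS replicate 2 within their groups. It was at 11.1, 40.4 and 32.1 FPKM in HA livers and 35.0, 7.37 and 36.0 FPKM in PBS livers. Of 8 fasting and FOXO1 targets tested 0 were called, with Pdk4, which spares glucose, at 1.02 to 2.93 FPKM in HA livers and 1.89 to 5.11 FPKM in PBS livers (adjusted p = 0.272). The part of hormones or feeding in the Ddit4 values was not tested.

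Atf3 and Ppp1r15a also belong to the early genes that tissue handling can raise, so those were set beside them. Of 12 immediate early genes tested 0 were called (smallest limma adjusted p = 0.0995, for Btg2), with 5 positive and 7 negative log2 fold changes. Jun, the partner of ATF3, was at 13.0, 3.28 and 11.5 FPKM in HA livers and at 14.4, 16.6 and 19.0 FPKM in PBS livers, so its groups did not overlap either (adjusted p = 0.289). Nr4a1 was also apart, at 0.188 to 0.546 FPKM in HA livers and 0.668 to 2.27 FPKM in PBS livers (adjusted p = 0.160). Btg2 lay the other way, at 6.79 to 13.1 FPKM in HA livers and 3.88 to 5.38 FPKM in PBS livers. All HA values lay below all PBS values in 2 of the 12 and above in 1, against 19.2% and 6.47% of all tested genes. In the other tested immediate early genes the groups overlapped. HA replicate 2 was the lowest HA library for Jun and the highest for Atf3. Of 5 heat shock genes tested, Hspa1b, an inducible HSP70, fell to 1.01 to 2.07 FPKM in HA livers, against 4.47 to 6.03 FPKM in PBS livers (log2 fold change -1.20, SE 0.19, adjusted p = 0.0447), and was called under 3 of 16 alternatives in processing (adjusted p 0.0358 to 0.218). The other 4 did not pass and all 5 had HA values below every PBS value, which held for 19.2% of all tested genes. Hspa1b has a near-identical copy, Hspa1a, so its counts are uncertain. The part of handling in the Atf3 values was not tested.

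Upstream of ATF4, 0 of 4 kinase genes and 0 of 12 genes of eIF2, eIF2B and the eIF2 phosphatase were called. Eif2ak1, the haem-regulated kinase, was at 12.9 to 13.9 FPKM in HA livers and 13.5 to 16.6 FPKM in PBS livers (limma adjusted p = 0.498). Eif2ak4 (GCN2, the sensor of uncharged tRNA), Eif2ak3 (PERK, the sensor in the endoplasmic reticulum) and Eif2ak2 (PKR) had log2 fold changes of 0.12, -0.09 and 0.03. In 3 of the 12, Eif2s3x, Ppp1ca and Ppp1r15b, all HA values lay below all PBS values, as in 19.2% of all tested genes. Ppp1r15b, the constitutive counterpart of Ppp1r15a, was at 15.2, 18.8 and 21.5 FPKM in HA livers and at 23.6, 23.1 and 22.2 FPKM in PBS livers (adjusted p = 0.283). Of 9 bZIP partners of ATF4 0 were called. All HA values lay below all PBS values in 3, Nfe2l1, Cebpa and Jun, against 19.2% of all tested genes. They lay above in 1, Batf3, against 6.47% of all tested genes. Nfe2l1 was at 14.2 to 20.6 FPKM in HA livers and 25.8 to 31.1 FPKM in PBS livers (limma adjusted p = 0.104). Batf3 was at 0.698 to 1.74 FPKM in HA livers and 0.246 to 0.396 FPKM in PBS livers (limma adjusted p = 0.169). Cebpb overlapped, at 76.1, 35.7 and 76.4 FPKM in HA livers and 48.5, 85.4 and 55.5 FPKM in PBS livers.

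Downstream of ATF4, none of the lists held a called gene in limma. Of 6 amino acid transporters tested, 3 had positive and 3 negative log2 fold changes. Slc1a4, which carries serine and alanine, was at 2.66, 1.73 and 1.89 FPKM in HA livers and at 0.992, 1.26 and 0.340 FPKM in PBS livers, all HA values above all PBS values (log2 fold change 0.75, SE 0.21, adjusted p = 0.135). Slc3a2, the heavy chain of several transporters, lay the other way, at 2.13 to 2.66 FPKM in HA livers and 2.67 to 3.32 FPKM in PBS livers (adjusted p = 0.299). Slc7a11, the cystine transporter, was at most 0.0307 FPKM in any library and was not tested. Of 5 enzymes of serine, one-carbon and transsulfuration metabolism tested 0 were called, with 2 positive and 3 negative log2 fold changes. Mthfd1l was at 0.430, 2.22 and 0.705 FPKM in HA livers and at 0.416, 0.446 and 0.192 FPKM in PBS livers. Its groups overlapped, with a log2 fold change of 0.56 (limma adjusted p = 0.342). Shmt2, the mitochondrial serine hydroxymethyltransferase, was at 59.1 to 63.6 FPKM in HA livers and 77.2 to 87.3 FPKM in PBS livers (adjusted p = 0.116), and Phgdh and Psat1, which start serine synthesis, were at most 0.391 FPKM and were not tested.

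The 20 cytosolic aminoacyl-tRNA synthetases, many of them ATF4 targets, had 8 positive and 12 negative log2 fold changes with a median of -0.03, and 0 were called. Aars, which loads alanine, was at 23.4 to 27.0 FPKM in HA livers and 28.5 to 32.4 FPKM in PBS livers (log2 fold change -0.29, limma adjusted p = 0.210). Cars, which loads cysteine, was at 9.80, 2.94 and 4.95 FPKM in HA livers and at 3.36, 3.45 and 3.16 FPKM in PBS livers (adjusted p = 0.410). Of 14 other targets of ATF4 and CHOP tested, 4 had positive and 10 negative log2 fold changes and 0 were called. Sqstm1, the autophagy receptor p62, was at 56.1 to 62.0 FPKM in HA livers and 63.2 to 93.6 FPKM in PBS livers (adjusted p = 0.307). Vldlr, a lipoprotein receptor, was at 0.426 to 0.786 FPKM in HA livers and 0.883 to 0.961 FPKM in PBS livers (adjusted p = 0.236).

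Both stress hormones that ATF4 and CHOP raise had negative log2 fold changes. Gdf15, which lowers appetite, was at 10.9, 6.10 and 8.17 FPKM in HA livers and at 13.2, 31.8 and 16.2 FPKM in PBS livers. The groups did not overlap, and the log2 fold change of -1.12 (SE 0.32, 95% interval -1.88 to -0.37) missed the threshold (limma adjusted p = 0.143). Fgf21, a hormone of fasting and amino acid shortage, was at 3.97, 2.93 and 4.68 FPKM in HA livers and at 7.44, 4.71 and 3.48 FPKM in PBS livers, with overlapping groups (adjusted p = 0.516).

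Of the 8 genes of the mitochondrial stress response, 0 were called. Atf5 had a positive log2 fold change and the other 7 negative ones, against 62.8% negative over all tested genes. Clpp, Hspd1, Lonp1 and Oma1 were lower in every HA liver than in any PBS liver, which held for 19.2% of all tested genes. Hspd1, a mitochondrial chaperonin, was at 159 to 171 FPKM in HA livers and 184 to 215 FPKM in PBS livers (limma adjusted p = 0.223). The IRE1-XBP1 and ATF6 branches respond to unfolded proteins beside the PERK branch. Of their 18 genes 17 had negative log2 fold changes, against 62.8% of all tested genes. The median of the list was -0.20, and 0 were called. In 2 of the 18 all HA values lay below all PBS values, against 19.2% of all tested genes, and the other genes overlapped. The summed FPKM of the list was 1570, 838 and 1150 in HA replicates 1 to 3 and 1290 to 1420 in PBS livers. HA replicate 1 thus had the highest sum of all libraries and HA replicate 2 the lowest. Sdf2l1, Pdia6 and Ern1 counted as negative although their mean FPKM was higher with HA. Their means were 11.25, 77.64 and 5.608 FPKM with HA and 10.87, 76.19 and 5.545 FPKM with PBS. Hspa5, the chaperone BiP, was at 334, 141 and 218 FPKM in HA livers and at 313, 319 and 294 FPKM in PBS livers (adjusted p = 0.385). Among close relatives of the members, Trib1, a pseudokinase of the Trib3 family that is known for its effect on liver lipogenesis, was at 7.27, 7.52 and 10.9 FPKM in HA livers and at 16.4, 15.9 and 17.7 FPKM in PBS livers. Its groups were well apart, and its log2 fold change of -0.91 (SE 0.15) did not pass (adjusted p = 0.0525), while 2 of 16 alternatives in processing called it (adjusted p 0.0287 to 0.287).

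**Figure D4:**
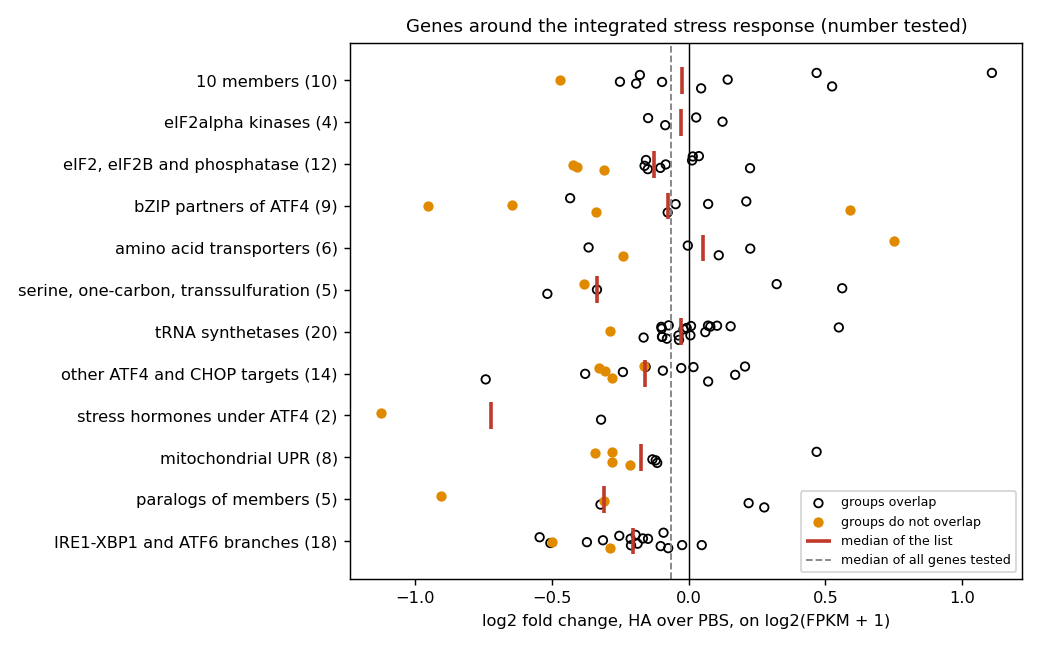
Log2 fold change of HA over PBS on log2(FPKM + 1) for each tested gene of the lists around the integrated stress response (rows, with the number tested); filled points are genes whose groups do not overlap, red bars are list medians and the dashed line is the median of all genes tested. Points lie on both sides of 0 among the members and the synthetases, while 17 of 18 genes of the IRE1-XBP1 and ATF6 branches lie below 0; some genes stand in more than 1 list.

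Taken once each and without the 10 members, 100 genes of these pathway lists were tested, of which 0 were called. Log2 fold changes were positive for 28 and negative for 72, with a median of -0.11, against 62.8% negative and a median of -0.06 over all genes tested. All HA values lay above all PBS values in 2 of the 100 and below in 21, next to 6.47% and 19.2% of all tested genes. A further 14 genes of these lists were under the filter and at most 0.920 FPKM in any library.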

How the data were processed

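Liver RNA was sequenced in 6 libraries, 3 labelled HA and 3 labelled PBS. The authors deposited 1 table of FPKM values. Trimmomatic, HISAT2 and the mouse build GRCm39 are named, without versions, per the submitters' processing notes. The sources used here do not give the counter, its strand setting or its annotation. Per the labels' protocols, 2 library kits are named (VAHTS Universal V6 and TruSeq Stranded Total).

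Ratios of low FPKM values between libraries gave the library totals and from them whole fragments per gene; 99824 of 99828 values came out whole within 0.0001. These fragments served for counting intervals (exact Poisson, 95%) and for voom. No library was a copy of another (the smallest chi-square between a pair was 33.3 per degree of freedom).

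The values, as log2(FPKM + 1), were fitted in limma 3.58.1 (R 4.3.3) with treatment as the only term and a variance trend, for genes averaging 0.5 FPKM or more. Two-sided p-values were adjusted across the fitted genes (Benjamini-Hochberg), and 0.05 was the threshold. With 3 libraries a group, exact permutation has 0.1 as its smallest two-sided p and was not used. The model was tested on simulated data. The members and all gene lists were chosen with earlier results of these data known. All members are described, and of the other lists up to 4 genes by smallest p. Cebpb, Fkbp5, Tat, Tsc22d3, Zbtb16, Slc7a11, Phgdh, Psat1, Nup62, Mars1, Alas2, Sdf2l1, Pdia6 and Ern1 were named outside this rule, after their values were seen. Exon overlaps were taken from GENCODE M21 (GRCm38), so no coordinates of it are given. Alternatives covered the pseudocount, filter, variance trend, scaling, voom, a replicate block and leaving out each library.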

Additional observations from a re-analysis of the deposited data

How the results depend on the processing

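No member was called under any of 15 alternatives or without HA replicate 1 and PBS replicate 1 together, an alternative chosen after seeing the data; the smallest adjusted p of a member was 0.0598 (Atf3 without HA replicate 2). Of 158 fold changes of members under these alternatives 5 changed sign: Chac1 was -0.15 without HA replicate 1 and -0.22 without PBS replicate 2, Trib3 -0.075 without HA replicate 2 and -0.02 without PBS replicate 3, and Ppp1r15a 0.037 without HA replicate 2. The cause was not tested. Leaving out libraries, Trib3 reached 0.376, Chac1 0.261 and Ppp1r15a -0.325. Asns ranged from 0.30 to 2.32 and Atf3 from -1.12 to -0.37, with the largest sizes for voom on recovered fragments, which adds no FPKM pseudocount; with a pseudocount of 0.1 they were 1.52 and -0.98. Against 31 higher and 55 lower of all genes in the main analysis, with no filter 7 were higher and 10 lower, with a replicate block 7 and 9, and without HA replicate 1 and PBS replicate 1 together 9 and 4. Leaving out 1 library gave 1 to 46 higher and 4 to 69 lower. Those lower were 32 after median centring, 24 after rescaling to the fragments outside Alb and 19 with voom on median-ratio depths, where those higher were 36, 33 and 28. Whether the replicate numbers pair the samples is not known, and correlations of deviations from means of 3 libraries cannot settle it. Deviations of same-numbered libraries correlated at -0.138, -0.125 and 0.176 over genes for numbers 1, 2 and 3. Those of differently numbered libraries correlated at -0.134 to 0.217. With the replicate block the SE went from 0.306 to 0.155 for Asns and from 0.302 to 0.123 for Atf5. For Atf4, Ppp1r15a and Ddit4 it was larger with the block. The lowest counts in single libraries were those of Atf3 and Asns, at 27 to 103 and 3 to 196 fragments per library, but the Asns values of PBS replicates 1 and 3 differed beyond counting error.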
